A study of Mus musculus with 16 samples.

Results

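Cyp2b9, Cyp2b10 and Cyp2b13 are cytochrome P450 genes of the mouse Cyp2b subfamily, and they were followed through 16 liver RNA libraries. They are 3 of the 78317 genes in the deposited tables and were found by matching each gene identifier, without its version, to these symbols (ENSMUSG00000040660.7, ENSMUSG00000030483.15 and ENSMUSG00000040583.9). All 3 were among the 14781 genes tested. The genes were chosen by their counts by diet and sex in these same libraries, in which Cyp2b10 fell in females and Cyp2b9 rose in males on the high fat diet. Their levels and differences are therefore given as description, with no p-value.

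The mice were wild-type C57BL/6J, an inbred laboratory strain, in 4 groups of 4: females and males, each on normal chow or on a high fat diet. Per the labels, fat gave 4.5% of calories in the normal chow and 60% in the high fat diet, the mice came at 6 weeks of age, and they ate these diets for 10 weeks. The 2 diets came from different makers, so fat content and the rest of the diet cannot be told apart. RNA came from powdered whole liver, so the values are sums over all its cell types, and a smaller number of cells of a type cannot be told apart from less RNA per cell. The labels do not say that replicates came from separate mice, so p-values measure the spread between these libraries.

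Cyp2b enzymes are membrane-bound monooxygenases of the hepatocyte that oxidise drugs, steroids and other lipophilic molecules, with electrons supplied by P450 reductase (Por). Cyp2b10 is the textbook target of the constitutive androstane receptor CAR (gene Nr1i3), which moves to the nucleus after exposure to phenobarbital-like compounds and acts with RXR alpha on an enhancer upstream of the gene. Cyp2b9 and Cyp2b13 are known as female-predominant genes of the mouse liver, where the sex pattern of many genes follows the pulses of pituitary growth hormone through STAT5B.

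The libraries held between 22228115 and 41420589 expected counts (estimated reads per gene). Summed CPM of 7 hepatocyte markers lay between 53190 and 117300 (CPM, counts relative to the scaled library size), with all 7 above 0 in every library. Xist lay between 116.5 and 340.0 CPM in the 8 libraries labelled female and at no more than 1.60 CPM in the 8 labelled male. Replicates 2 and 3 of the males on high fat diet were the most similar pair of libraries within any group, with a chi-square per gene of 4.00, against at least 20.7 for every other pair. They still differed by more than counting noise and were counted as 2 samples. This difference does not show whether they came from separate mice. The p-values of contrasts with males on high fat diet count them as 2 of 4 replicates. Results that rest on them are also given without both.

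The proximal promoters are printed because Cyp2b9 and Cyp2b13 share almost the same letters there, while their RNA differed in the males on high fat diet. The windows are the 250 bases before the RefSeq transcription start, on the plus strand of build GRCm38.p6, and all 3 genes were matched. They lie at chr7:26173159-26173408 for Cyp2b9, chr7:26061245-26061494 for Cyp2b13 and chr7:25897408-25897657 for Cyp2b10. Capitals mark the 2 bases at which the first 2 windows differ and, in Cyp2b10, its match to the C/EBP-type motif TTGCNNAA.
Cyp2b9: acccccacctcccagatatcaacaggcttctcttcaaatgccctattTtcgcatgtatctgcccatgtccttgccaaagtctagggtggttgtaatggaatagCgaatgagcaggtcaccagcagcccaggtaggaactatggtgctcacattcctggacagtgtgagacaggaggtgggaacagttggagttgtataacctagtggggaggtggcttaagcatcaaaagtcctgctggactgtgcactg
Cyp2b13: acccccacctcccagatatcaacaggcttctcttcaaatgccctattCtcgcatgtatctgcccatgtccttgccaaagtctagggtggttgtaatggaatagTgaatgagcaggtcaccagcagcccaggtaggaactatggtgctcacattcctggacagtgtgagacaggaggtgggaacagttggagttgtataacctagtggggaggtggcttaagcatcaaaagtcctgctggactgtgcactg
Cyp2b10: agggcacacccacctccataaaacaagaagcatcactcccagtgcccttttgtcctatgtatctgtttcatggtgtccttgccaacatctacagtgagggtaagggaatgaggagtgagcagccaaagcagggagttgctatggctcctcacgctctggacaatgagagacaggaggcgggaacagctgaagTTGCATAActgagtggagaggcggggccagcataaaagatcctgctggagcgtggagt

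The Cyp2b9 and Cyp2b13 windows were identical at 248 of 250 bases (99.2%), and the differences lie at positions -203 and -147 from the start. Either window matched Cyp2b10 at 182 of 240 aligned bases (75.8%). Motifs were searched on both strands and were chosen after the sequences had been seen. TTGCNNAA occurred 1 time in each window, at -58 in Cyp2b10 and at -180 in the other two, and in 9.55% of the same windows of 27025 promoters. At the place of the Cyp2b10 match both other genes have TTGTATAA. The nuclear receptor half-site AGGTCA occurred at -138 in Cyp2b9 and Cyp2b13 and not in the Cyp2b10 window, with 13.8% of promoters holding it. TTCNNNGAA, the STAT5-type motif, and TATAAA were in none of the 3 windows and in 7.18% and 13.0% of promoters. The matches did not overlap each other. They describe letters in this window only, and the phenobarbital-responsive enhancer of Cyp2b10 is known to lie further upstream.

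Since the genes are close copies, the share of their RNA that reads can tell apart bears on every level below. Transcripts of Cyp2b9 and Cyp2b13 in the GENCODE M21 set were 91.9% identical over their aligned bases. Cyp2b10 was 87.5% identical to Cyp2b9 and 88.6% to Cyp2b13. Of all stretches of 50 bases, 88.8% of those of Cyp2b9, 90.3% of those of Cyp2b10 and 72.7% of those of Cyp2b13 were in no other gene's transcripts. For stretches of 100 bases, these shares were 98.8% for Cyp2b9, 100% for Cyp2b10 and 90.7% for Cyp2b13. Besides Cyp2b9, the gene model that shared stretches of this length with Cyp2b13 was Gm45225, which had at most 6.04 counts in any library. The estimated counts were not whole, a sign that some reads were divided between genes, in 10 of 16 libraries for Cyp2b9, 10 for Cyp2b13 and 4 for Cyp2b10. The other rows with Cyp2b symbols (Cyp2b19, Cyp2b23 and the pseudogenes Cyp2b26-ps and Cyp2b27-ps) had 0 counts in all 16 libraries, and a count of 0 allows up to 3 counts, or at most 0.133 CPM in any library. This limit covers counting error only.

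Cyp2b9 was a female transcript on normal diet, with 431.5, 527.4, 487.6 and 425.0 CPM in the 4 female libraries (mean 467.8 ± 48.6, SD, n = 4). The 4 males on normal diet had 0.329, 0.571, 0 and 1.68 CPM, which were 8, 20, 0 and 62 counts. All females lay above all males, with 425.0 CPM in the lowest female and 1.68 CPM in the highest male. On high fat diet the females had 310.4, 536.3, 624.8 and 583.1 CPM (513.6 ± 140.2). The first of these lay below every female on normal diet and the other three above them, so the groups overlapped. The 4 males on high fat diet had 3.31, 96.2, 95.8 and 6.51 CPM (50.5 ± 52.6). All of them lay above all males on normal diet and below all females, and they formed a low pair (replicates 1 and 4) and a high pair (replicates 2 and 3).

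Cyp2b13 had the same female pattern, but in males the 2 diets overlapped. It stood at 353.0, 392.5, 395.4 and 305.4 CPM in females on normal diet (361.6 ± 42.1) and at 182.6, 441.0, 337.0 and 519.3 CPM in females on high fat diet (370.0 ± 145.5). The ranges of the 2 female groups overlapped, and replicate 1 on high fat diet was again the lowest. Males had 0.535, 0.200, 0 and 1.92 CPM on normal diet and 0.150, 2.00, 2.20 and 0.620 CPM on high fat diet. The 2 male groups overlapped, at 2.20 CPM or less, and replicate 4 on normal diet, at 71 counts, was the highest of its group. Within the high fat group replicates 2 and 3 were again the higher pair, as for Cyp2b9.

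Cyp2b10, the CAR target, was the lowest of the genes in females, and the one whose level there differed between the diets. Females on normal diet had 48.3, 46.2, 30.0 and 44.1 CPM (42.1 ± 8.28), and females on high fat diet had 2.93, 2.25, 3.10 and 2.94 CPM (2.81 ± 0.380). All 4 libraries on high fat diet lay below all 4 on normal diet, and below all 4 males on normal diet. Those males had 7.08, 4.57, 5.14 and 4.79 CPM (5.40 ± 1.15). Males on high fat diet had 0.520, 9.06, 7.35 and 0.310 CPM (4.31 ± 4.55), from 14, 267, 214 and 7 counts. They lay on both sides of the normal diet group, with replicates 1 and 4 below it and replicates 2 and 3 above it.

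**Figure D1:**
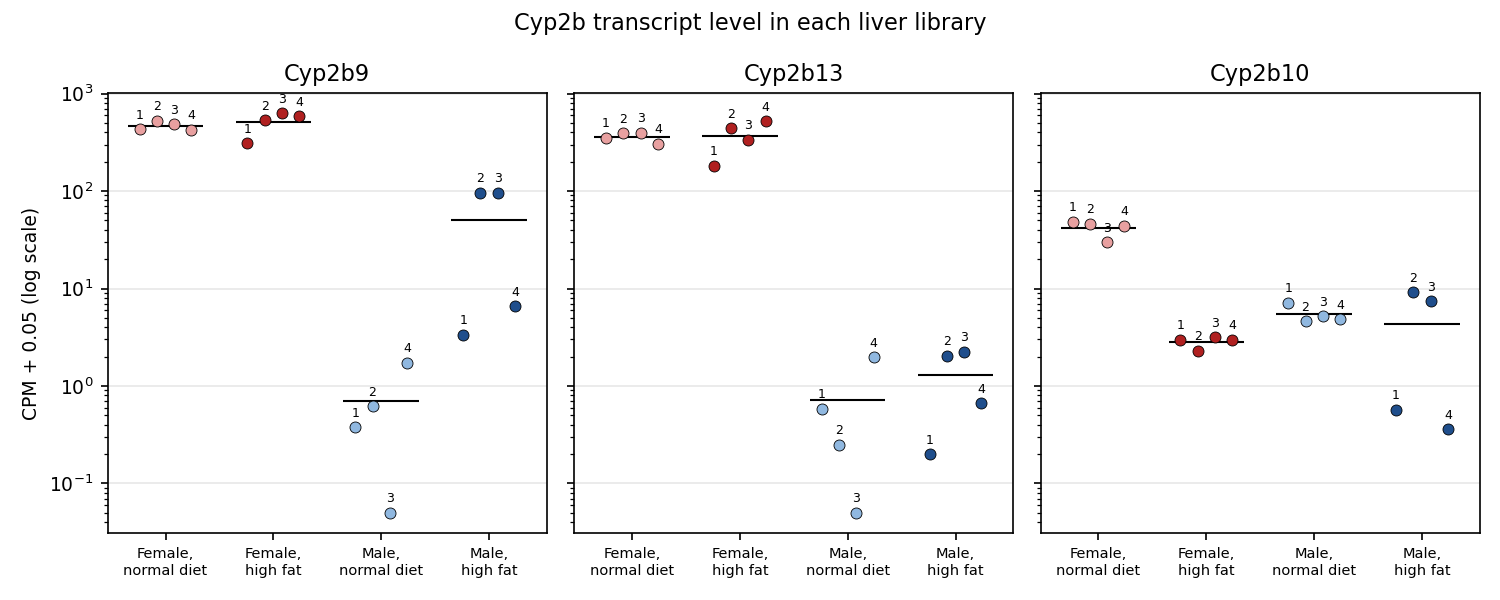
Level of Cyp2b9, Cyp2b13 and Cyp2b10 in each of 16 liver libraries (y axis, CPM with 0.05 added so that 0 can be drawn, log scale) by group (x axis), with the replicate number above each point and a line at the group mean. Females on high fat diet sit near 2.81 CPM for Cyp2b10 against 42.1 on normal diet, and males on high fat diet split into replicates 2 and 3 near 96 CPM of Cyp2b9 and replicates 1 and 4 at 3.31 and 6.51.

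The order of groups differed between the genes. For Cyp2b9 it was females of either diet (overlapping), then males on high fat diet, then males on normal diet. For Cyp2b13 the 2 female groups overlapped at the top and the 2 male groups at the bottom. For Cyp2b10 females on normal diet stood above the other groups. Males on normal diet lay above females on high fat diet without overlap, and males on high fat diet overlapped both.

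Levels were compared between genes as TPM, which is scaled by transcript length. In females on normal diet Cyp2b9 had a mean of 332.7 ± 40.9 TPM, Cyp2b13 257.5 ± 37.8 and Cyp2b10 29.0 ± 4.21 (SD, n = 4). Cyp2b9 ranked 346th of all tested genes and 22nd of 71 tested P450 genes in these livers, and Cyp2b13 ranked 439th and 26th. In males on normal diet Cyp2b9 ranked 12457th and Cyp2b13 12423rd. On high fat diet the male mean of Cyp2b9 was 37.2 ± 38.7 TPM, which put it 34th among the P450 genes. Cyp2b10 went from rank 2401 on normal diet to rank 9532 on high fat diet in females.

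The make-up of the family sum, in TPM, therefore differed between the groups. In females on normal diet Cyp2b9 made up 53.7 ± 1.39%, Cyp2b13 41.5 ± 1.73% and Cyp2b10 4.77 ± 1.14% of the sum. On high fat diet the shares in females were 58.7 ± 5.86%, 41.0 ± 5.95% and 0.344 ± 0.160%. In males on normal diet Cyp2b10 made up 82.6 ± 18.6% of a small sum. In males on high fat diet Cyp2b9 made up 88.0 ± 3.39%, from 83.4% to 91.1%, in spite of the spread of its level. The low and the high pair of males thus differed in the amount of the sum and much less in its make-up. Summed TPM were 2.95, 79.3, 77.1 and 5.68 in these 4 libraries. The ratio of Cyp2b9 to Cyp2b13 in TPM was 1.30 ± 0.0829 in females on normal diet and 1.47 ± 0.358 on high fat diet. It was 22.4, 47.8, 43.6 and 10.6 in the 4 males on high fat diet, all above every female library. In replicates 1 and 4 of these males it rests on 4.04 and 14 counts of Cyp2b13, so its size there is uncertain.

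**Figure D2:**
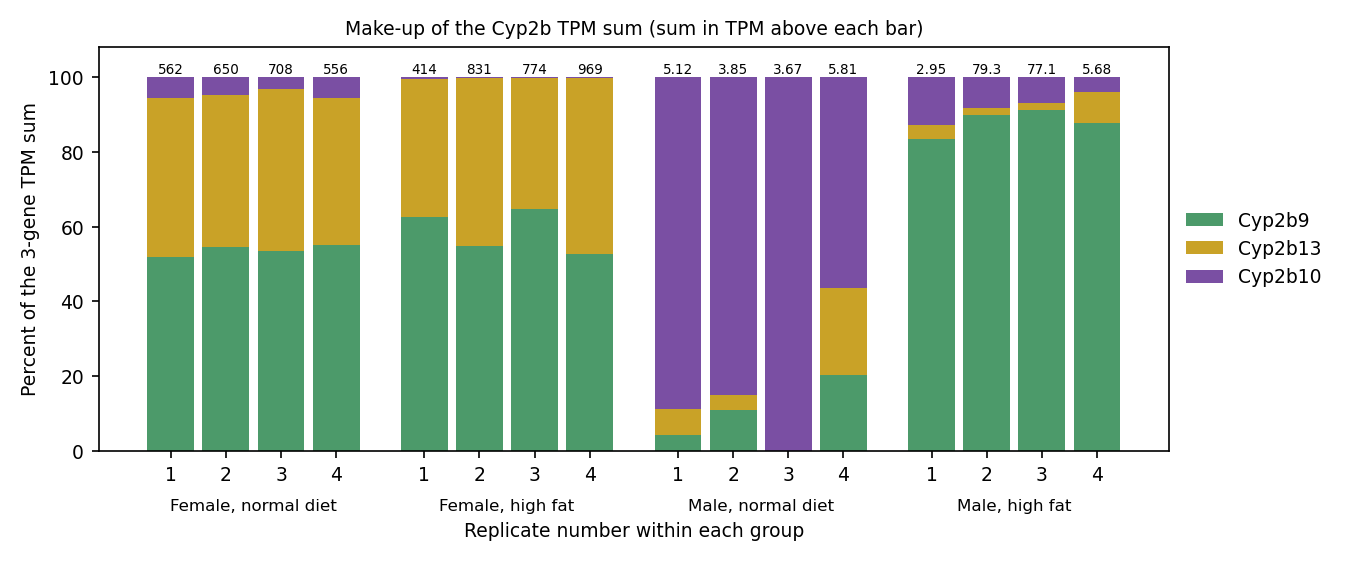
Share of Cyp2b9, Cyp2b13 and Cyp2b10 in the summed TPM of the 3 genes (y axis, percent) for each library (x axis, replicate number within each group), with the sum in TPM above each bar. Cyp2b9 and Cyp2b13 share the female bars, Cyp2b10 fills 56.5% to 100% of the bars of males on normal diet, and Cyp2b9 fills 83.4% to 91.1% of those of males on high fat diet.

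Differences between groups were fitted on the counts of all tested genes and are given as log2 fold changes ± SE from the quasi-likelihood fit of edgeR. In females, high fat against normal diet, Cyp2b10 was lower by 3.91 ± 0.70 on the log2 scale. Cyp2b9 differed by 0.13 ± 0.84, Cyp2b13 by 0.03 ± 0.57 and the family sum by 0.04 ± 0.76. Of the 3 genes 1 had all high fat females below all normal diet females, against 9.55% of tested genes, and 0 had them above, against 8.71%. This contrast chose the gene, so nothing is read from the count. The family sum hides the change of Cyp2b10, since it made up a mean of 4.77% or less of the sum in females.

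In males, high fat against normal diet, Cyp2b9 was higher by 6.15 ± 1.14. Cyp2b13 differed by 0.81 ± 0.82, Cyp2b10 by -0.29 ± 0.66 and the family sum by 3.06 ± 0.84. With 1 library left out at a time, the Cyp2b13 value ranged from 0.40 to 2.36, so its size is uncertain. Of the 3 genes 1 had all high fat males above all normal diet males, against 9.32% of tested genes, and 0 had them below, against 9.13%. This contrast also chose the gene. Replicates 2 and 3 decided the size of these values. Without both, Cyp2b9 was higher by 2.76, Cyp2b13 differed by -0.98, Cyp2b10 by -3.66 and the sum by -0.24. The rise of Cyp2b9 was thus present in the low pair of males alone, at a smaller size, while the sum turned to the other side of 0 and Cyp2b10 came close to its value in females.

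Other measured values moved with the high pair of males. In replicates 1 to 4 of the males on high fat diet, summed CPM of 5 pancreatic acinar markers were 0.780, 22.9, 9.21 and 0.399, against 0.165 to 0.400 in males on normal diet, where 2 of the 5 were at 0 in all libraries. Summed CPM of 5 adipocyte markers were 0.966, 10.6, 10.9 and 5.80, against 0.742 to 1.98. The 7 hepatocyte markers summed to 53190, 73320, 74440 and 54050 CPM, against 83880 to 94830, and 4 of the 7 fell with high fat diet (57.1%, against 11.4% of all tested genes). The 7 Kupffer cell markers summed to 436.0, 246.0, 210.7 and 321.3 CPM. Replicates 2 and 3 had the highest pancreatic, adipocyte and hepatocyte sums of the group and the lowest Kupffer sums. All 5 pancreatic markers were highest in these 2 libraries. The adipocyte sum was mostly Cfd, at 0.372, 9.64, 10.2 and 3.76 CPM, while Adipoq (0.409, 0.611, 0.412 and 1.46 CPM) and Plin1 (0.186, 0.136, 0.103 and 0.487 CPM) were highest in replicate 4. The hepatocyte sum was mostly Alb, at 37640, 58220, 58560 and 39440 CPM, while Hnf4a had 528.5, 495.8, 488.5 and 518.6 CPM and was lowest in replicates 2 and 3, as was Serpina1a.

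Genes with a known sex bias also differed between these libraries, and the examples were chosen after their values were seen. The male-biased Cyp7b1, a steroid hydroxylase, had 1001, 140.1, 146.5 and 580.8 CPM in replicates 1 to 4, and Egfr, the receptor of epidermal growth factor, had 862.6, 137.3, 141.2 and 620.9 CPM. Selenbp2, also male-biased, had 887.2, 164.1, 153.2 and 1035 CPM. All 3 were lower in replicates 2 and 3 than in any male on normal diet. The female-biased Abcd2, a peroxisomal transporter, had 4.39, 45.7, 48.0 and 7.13 CPM, and Acot3, an acyl-CoA thioesterase, 4.09, 46.4, 50.8 and 3.32 CPM. Both were higher in replicates 2 and 3 than in any male on normal diet. Not all genes of these lists went this way. The male-biased Cyp2d9 (839.3, 1117, 1117 and 815.3 CPM) and Elovl3 (56.6, 128.0, 134.7 and 84.8 CPM) were higher in replicates 2 and 3. The female-biased Sult1e1 (3.46, 1.43, 1.17 and 2.35 CPM) was lower in them. The part of these differences in the Cyp2b levels was not tested.

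Pericentral hepatocytes, around the central vein, are where Cyp2b genes are known to be expressed most. Summed CPM of 10 pericentral markers were 13760 to 16210 in males on high fat diet, above the 8656 to 13720 of males on normal diet, and 4 of the 10 rose and 1 fell (50%, against 11.4% of all tested genes). In females 1 of the 10 rose with high fat diet (10.0%, against 11.5%). Replicate 1 of the females on high fat diet, which had the lowest Cyp2b9 and Cyp2b13 of its group, also had the lowest pericentral sum, at 8324 CPM against 12980 to 15680 in the other three. The pericentral sum was mostly Cyp2e1, with 4818736 counts over all libraries, against 587754 for Glul, the next of the 10. The part of zonation in these levels was not tested.

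The genes were chosen by their counts by diet and sex, so nothing is read from the counts of genes without overlap in this paragraph. Between the sexes on normal diet, all 3 genes had every female above every male, against 9.86% of tested genes. The difference, females minus males, was 9.36 ± 1.26 for Cyp2b9, 8.96 ± 0.85 for Cyp2b13, 2.97 ± 0.66 for Cyp2b10 and 7.02 ± 1.00 for the sum. On high fat diet 2 of the 3 had every female above every male, against 10.3% of tested genes. Cyp2b13 differed by 8.18 ± 0.81 and Cyp2b9 by 3.35 ± 0.92, and Cyp2b10 overlapped with a difference of -0.65 ± 0.69, which turned to 0.14 on log2(TPM + 1) and 0.63 on log2(TPM + 0.1). The sum differed by 4.01 ± 0.86. Without replicates 2 and 3 of the males on high fat diet, the Cyp2b9 difference was 6.72, that of Cyp2b13 9.96, that of Cyp2b10 2.72 and that of the sum 7.29. The size of the sex difference of Cyp2b9 on high fat diet thus rests on those libraries, as does the side on which Cyp2b10 falls.

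The diet change in females minus that in males was -6.01 ± 1.39 for Cyp2b9, -3.62 ± 0.94 for Cyp2b10, -0.78 ± 1.00 for Cyp2b13 and -3.02 ± 1.12 for the sum. Without the same 2 male libraries these differences were -2.63, -0.25, 1.01 and 0.27. The value for Cyp2b10 hence rests on those 2 libraries. That for Cyp2b13 was -2.32 without replicate 4 of the males on normal diet. Over all tested genes this difference passed the test for 0.677%. The groups share 1 estimate of spread, and the males on high fat diet vary far more than the females (SD 105.6% and 13.5% of the mean for Cyp2b10 on high fat diet), so the SE of the female contrast also holds the male spread.

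**Figure D3:**
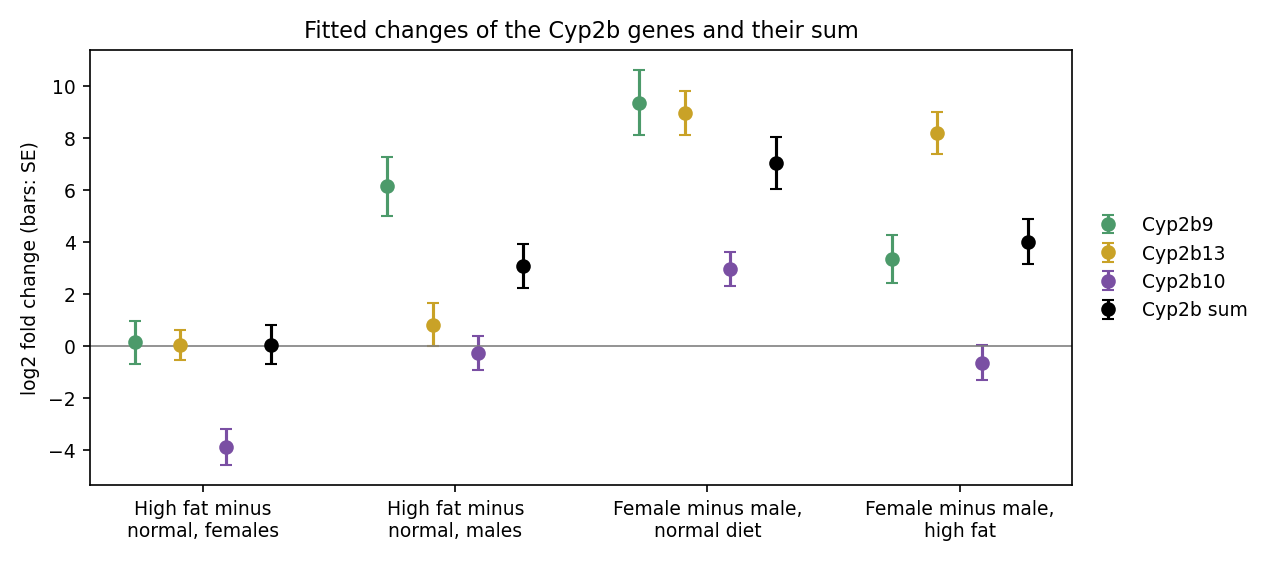
Fitted log2 fold changes (y axis; bars, SE) of Cyp2b9, Cyp2b13, Cyp2b10 and the sum of their counts for 4 comparisons (x axis), each over 4 libraries a group. Cyp2b10 stands at -3.91 in females and Cyp2b9 at 6.15 in males for high fat minus normal diet, while Cyp2b13 stays within 1 SE of 0 in both.

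The receptors and partners of the P450 system were described from a list of 15 genes, of which 1 rose and 4 fell in females on high fat diet (33.3%, against 11.5% of all tested genes). The list's median log2 fold change was -0.30, against 0.00 over all tested genes. Nr1i3, which encodes CAR, did not pass the test, with a log2 fold change of -0.18 ± 0.22 in females (adjusted p = 0.655), or 0.03 on TPM. Its levels were 232.3, 202.3, 235.9 and 219.7 CPM on normal diet and 135.2, 235.7, 227.4 and 189.7 CPM on high fat diet, which overlap. Nr1i2, which encodes the pregnane X receptor PXR, fell by 0.79 ± 0.10 (adjusted p = 0.000109), from 92.6 to 108.5 CPM down to 48.5 to 62.5 CPM. Por, the electron donor, fell by 0.85 ± 0.13 (adjusted p = 0.000619). Hnf4a, a hepatocyte transcription factor, fell by 0.60 ± 0.12 (adjusted p = 0.00331).

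Alas1, the first enzyme of heme synthesis, fell by 0.81 ± 0.23 in females (adjusted p = 0.0318), and Cebpa, a C/EBP factor, rose by 0.35 ± 0.10 (adjusted p = 0.0343). Alas1 lost its call under 8 of 16 alternatives, with adjusted p between 0.00515 and 0.0888 over all of them, among these without replicate 4 of the females on high fat diet or replicates 1, 3 or 4 of those on normal diet. Cebpa lost it under 7, at 0.00234 to 0.115, among these without replicates 1 or 2 on high fat diet or any 1 library on normal diet. Without replicate 1, 3 or 4 of the females on normal diet 3 of the 15 passed. In males on high fat diet none of the 15 rose and 4 fell (26.7%, against 11.4% of all tested genes), with a median of -0.14 against 0.01. Nr1i3 had a log2 fold change of 0.17 ± 0.22 (adjusted p = 0.671), or -0.27 without replicates 2 and 3 of the males on high fat diet. Its levels of 120.4, 208.9, 216.9 and 130.1 CPM in males on high fat diet were higher in replicates 2 and 3, the pair that was also higher in Cyp2b9 and Cyp2b10. Nr1i2 fell by 0.41 ± 0.10 (adjusted p = 0.0143), Por by 0.69 ± 0.13 (adjusted p = 0.00282), Hnf4a by 0.47 ± 0.11 (adjusted p = 0.0139) and Hsp90aa1, a cytosolic chaperone of receptors, by 1.08 ± 0.22 (adjusted p = 0.00519). The Nr1i2 call in males was lost on TPM, with adjusted p = 0.0583 and 0.0563, and that of Hsp90aa1 without replicates 2 and 3, at 0.0736. The Hnf4a call was lost on TPM in both sexes, at 0.0501 and 0.0511 in females and 0.0653 and 0.0637 in males. In males Hnf4a also lost it without replicate 3 on normal diet, at 0.0582, and without the high fat pair, at 0.083. Alas1 had -0.38 ± 0.23 in males (adjusted p = 0.305).

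Other known CAR and PXR targets were described from a list of 34 genes that leaves out the Cyp2b genes. Their summed level was 24330 to 26370 CPM in females on normal diet and 9356 to 14560 CPM on high fat diet. In males it was 23830 to 26910 CPM and 8888 to 14110 CPM. In each sex all high fat libraries lay below all normal diet libraries. A large part of this drop was 1 gene, Cyp3a11. In females its mean went from 7418 to 2213 CPM, and that of the sum from 25040 to 12720 CPM. In males the mean of Cyp3a11 went from 10340 to 815.5 CPM, and that of the sum from 25370 to 11520 CPM. In females none of the 34 rose and 14 fell (41.2%, against 11.5%), the median log2 fold change was -0.70 against 0.00 over all tested genes, and all 34 values were below 0 (33 of 34 on either TPM scale). In males 2 rose and 11 fell (38.2%, against 11.4%), with a median of -0.64 against 0.01 and 27 of 34 values below 0. The list includes genes that CAR or PXR is known to repress, such as Pck1 and Pdk4, and it holds Por and Alas1, which the previous list also holds.

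Among its members, Ces2a, a carboxylesterase, fell by 1.65 ± 0.14 in females (adjusted p = 3.57e-06) and by 2.26 ± 0.14 in males (adjusted p = 1.71e-08). Cyp2c55, a P450 with a strong response to CAR and PXR activators, fell by 2.81 ± 0.25 in females (adjusted p = 7.15e-06) and fell by 3.80 ± 0.26 in males (adjusted p = 5.79e-08). It went from 5.03 to 9.11 CPM in females on normal diet to 0.634 to 1.10 CPM on high fat diet. Gstm3, a glutathione transferase, fell by 1.32 ± 0.20 in females (adjusted p = 0.000478) and fell by 2.14 ± 0.20 in males (adjusted p = 9.57e-06). Cyp3a11, the main PXR target of mouse liver, fell by 3.66 ± 0.41 in males (adjusted p = 8.04e-05) and fell by 1.74 ± 0.38 in females (adjusted p = 0.00922). Its levels in the males on high fat diet were 251.0, 1294, 1304 and 413.1 CPM, so replicates 2 and 3 were the higher pair here too, yet all 4 lay far below the 9756 to 10990 CPM of the males on normal diet.

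Pck1, the gluconeogenic enzyme PEPCK, fell by 1.34 ± 0.20 in females (adjusted p = 0.000384), and Gstm1, another glutathione transferase, by 1.16 ± 0.16 in males (adjusted p = 0.000253). The 2 genes that rose in males were Sult1e1 and Pdk4, the latter named after its value was seen. Sult1e1, the estrogen sulfotransferase, rose by 2.54 ± 0.47 (adjusted p = 0.00208) and in females it fell by 1.54 ± 0.44 (adjusted p = 0.0306). The call in females was lost without replicate 2 or 3 on high fat diet or replicate 1, 2 or 4 on normal diet, at adjusted p of 0.0682 to 0.0873. Pdk4, a kinase that restrains pyruvate oxidation, rose by 2.67 ± 0.52 (adjusted p = 0.00548). The fall of Cyp2b10 in females, at 3.91, was larger in size than that of each of the 34 listed targets in females. Among these Cyp2c55 had the lowest value, and the difference between the 2 genes was not tested. Cyp2b10 was chosen with its fall in this contrast known, so nothing is read from its rank.

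**Figure D4:**
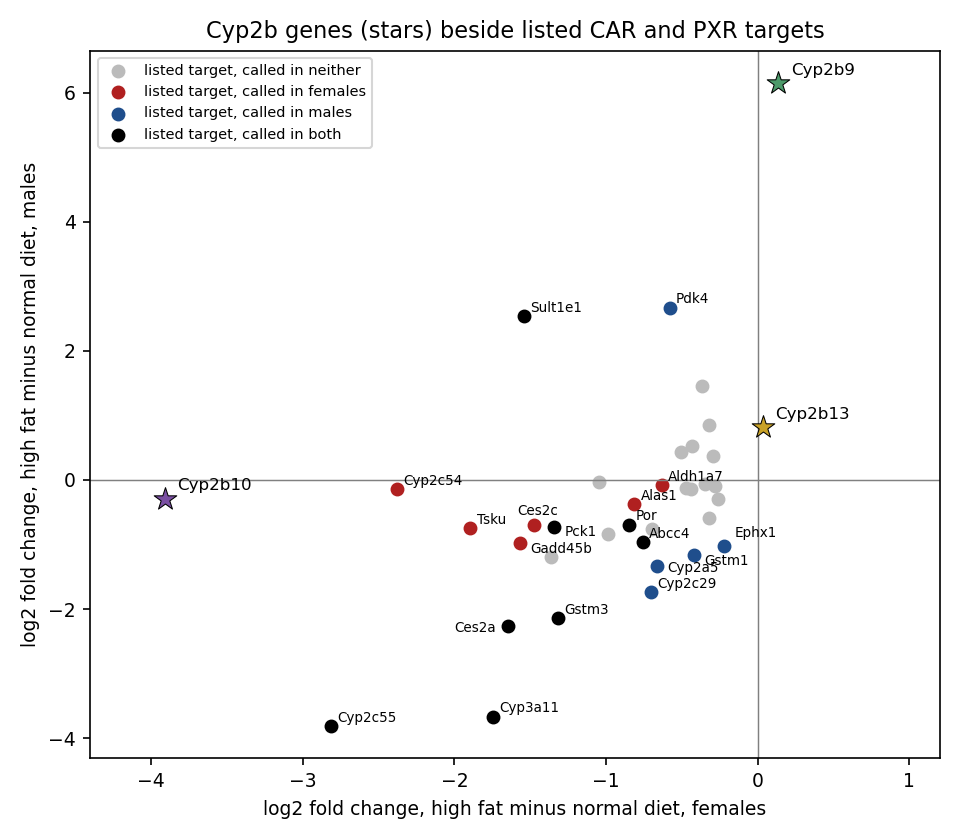
Log2 fold change, high fat minus normal diet, in females (x axis) and in males (y axis) for 34 listed CAR and PXR targets (points, coloured by the contrast in which they passed adjusted p under 0.05) and for the Cyp2b genes (stars). All 34 points lie left of 0 in females (33 on TPM), Cyp2b10 lies furthest left at -3.91, and Cyp2b9 stands apart at 0.13 in females and 6.15 in males. The Cyp2b genes were chosen with these values known.

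Genes with a known sex bias in mouse liver were described to set Cyp2b9 and Cyp2b13 beside their kind. All 27 genes of the female-biased list were higher in females on normal diet, where 15.7% of tested genes passed in either direction, and none of them is a Cyp2b gene. With high fat diet 1 rose and 1 fell in females (7.41%, against 11.5% of all tested genes), at a median of -0.05 that became 0.18 on log2(TPM + 1), where the median of all tested genes was 0.15. In males 2 rose and 2 fell (14.8%, against 11.4%), at a median of 0.29 that became -1.13 without replicates 2 and 3 on high fat diet, when 2 rose and 6 fell. Cyp2b9 and Cyp2b13 in females, both within 1 SE of 0, were near the median of the list there. In the low pair of males alone, Cyp2b9 at 2.76 and the list at -1.13 thus lay on opposite sides of 0. In females Sult2a5, a sulfotransferase, rose by 1.01 ± 0.28 (adjusted p = 0.0312, and 0.0627 with replicate number as a block), and Sult1e1 fell as given above. The Sult2a5 call was lost without replicate 4 on high fat diet or replicate 1, 2 or 4 on normal diet, at 0.0528 to 0.12. Without 1 of those last 3 libraries 0 of the 27 passed in females by edgeR's test, and without replicate 2 or 4 on high fat diet 1 did.

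In males the female-biased genes that rose were Sult1e1 and Slc22a27, a member of the organic anion transporter family, which rose by 3.60 ± 0.73 (adjusted p = 0.00743). Those that fell were Cyp2c40, a P450 of arachidonic acid metabolism, by 3.77 ± 0.40 (adjusted p = 5.37e-05), and Trim24, a transcriptional co-regulator, by 0.91 ± 0.16 (adjusted p = 0.00119). Beside Cyp2b9 at 6.15 the largest rise among the 27 in males was thus that of Slc22a27, and the largest fall was that of Cyp2c40. The summed level of the 27 genes in males was 166.4 to 1051 CPM on high fat and 229.5 to 682.8 CPM on normal diet, which overlap. Of the 27, 23 did not pass the test.

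Of 24 tested genes of the male-biased list, 22 were lower in females than in males on normal diet. With high fat diet 1 rose and 5 fell in females (25.0%, against 11.5% of all tested genes), at a median of -0.88. In males none rose and 5 fell (20.8%, against 11.4%), at a median of -0.49 (-0.03 without replicates 2 and 3 on high fat diet). Without replicate 4 of the females on high fat diet, or replicate 3 or 4 of those on normal diet, 3 passed in females, and without replicate 3 of the males on high fat diet 3 passed in males. Of the genes that moved in females, Slco1a1, an organic anion uptake transporter, fell by 3.17 ± 0.62 (adjusted p = 0.00684, or 0.0556 with the 2 female groups alone). Cyp2d9, a steroid hydroxylase, fell by 0.92 ± 0.21 (adjusted p = 0.0101), and Ugt2b1, a glucuronosyltransferase, fell by 0.69 ± 0.17 (adjusted p = 0.0128, or 0.052 and 0.0523 on the TPM scales). Elovl3, a fatty acid elongase, fell by 1.93 ± 0.52 (adjusted p = 0.0323), a call that 7 of 16 alternatives lost. They include leaving out replicate 2 or 4 on high fat diet or replicate 2, 3 or 4 on normal diet, and adjusted p reached 0.0883. The P450 gene Cyp2u1 rose by 1.07 ± 0.31 (adjusted p = 0.0357), a call that 11 alternatives lost, at up to 0.175. They include leaving out replicate 1 or 4 on high fat diet or any 1 library on normal diet. In males Ugt2b1 fell by 1.10 ± 0.17 (adjusted p = 0.000508), Cspg5, a proteoglycan, by 3.57 ± 0.61 (adjusted p = 0.00122), and the glutathione transferase Gstp2 fell by 1.74 ± 0.40 (adjusted p = 0.0115). The Gstp2 call was lost without replicates 2 and 3 on high fat diet, at 0.0513, and with the 2 male groups alone, at 0.0738. Its neighbour in the family, Gstp1, fell by 1.42 ± 0.37 (adjusted p = 0.0232), a call that 6 of 17 alternatives lost. It was lost without replicate 3 on high fat diet, at 0.0518, without replicates 2 and 3, at 0.0511, with the pair averaged, at 0.0523, and without replicate 1 on normal diet, at 0.0608. It was also lost with no low-count filter, at 0.0736, and with the 2 male groups alone, at 0.0787. Cyp4a12b, a fatty acid hydroxylase, fell by 1.73 ± 0.48 (adjusted p = 0.0354), a call that 8 of 17 alternatives lost, at up to 0.145. They include leaving out replicate 2 or 3 on high fat diet or replicate 2, 3 or 4 on normal diet.

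Among 15 genes of the growth hormone and STAT5 axis and its liver factors, 1 rose and 1 fell in females (13.3%, against 11.5% of all tested genes), and 2 rose and 1 fell in males (20.0%, against 11.4%). The share in females is near that of all genes. Stat5b, the transcription factor that carries the growth hormone signal, rose in males by 0.71 ± 0.13 (adjusted p = 0.00243) and had 0.12 ± 0.13 in females (adjusted p = 0.609). Stat5a, its close relative, rose in males by 1.15 ± 0.19 (adjusted p = 0.000834). The males on high fat diet had 8.33, 13.0, 13.3 and 10.4 CPM of Stat5a and 42.3, 59.2, 54.0 and 45.2 CPM of Stat5b, against 3.91 to 6.14 and 25.9 to 33.7 CPM on normal diet. Replicates 2 and 3 were the highest of the group for both factors. In females Foxa2, a pioneer factor of the hepatocyte, rose by 0.78 ± 0.20 (adjusted p = 0.0205), and Hnf4a fell as given above. The Foxa2 call was lost without replicate 2 on high fat diet or replicate 2 or 3 on normal diet, at 0.0573 to 0.0585, and 1 of the 15 then passed.

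Bcl6 and Cux2 are repressors with a male and a female bias in the liver. Bcl6 had -0.97 ± 0.50 in females (adjusted p = 0.235) and -0.42 ± 0.48 in males (adjusted p = 0.622), which turned to 0.45 without replicate 4 on normal diet. Cux2 had -0.01 ± 0.25 in females (adjusted p = 0.985), a value that 7 of 16 alternatives turned above 0, and -0.68 ± 0.59 in males (adjusted p = 0.492). Neither passed the test in either sex. Cux2 had 0.0743 to 0.266 CPM in males on high fat diet and 0 to 0.428 CPM in those on normal diet. These levels lie near 3 counts, which are at most 0.133 CPM, so its change in males is uncertain.

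The genes whose profile over the 16 libraries was most like that of each Cyp2b gene were found by the root mean square difference between log2 CPM profiles, each centred on its own mean. These same libraries made the choice, so a pattern shared with the Cyp2b gene follows from it and is only described. For Cyp2b13, whose own profile has a root mean square of 4.77, these were Sult2a2 at 0.757, Cyp3a41a at 0.767, Slc22a26 at 0.828, Cyp2a4 at 0.859 and Cyp3a16 at 0.986. In all 5 genes every female lay above every male. Sult2a2, for example, stood at 415.5 CPM or more in the 8 females and at 2.36 CPM or less in the 8 males. Several belong to families of close copies, so that their counts carry the same uncertainty as those of the Cyp2b genes.

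For Cyp2b9, whose profile has a root mean square of 4.41, the nearest were Slc22a27 at 1.56, Cyp2a22 at 1.71, Slc22a26 at 1.73, Hao2 at 1.78 and Cyp2b13 at 1.93. Slc22a27 had 0.743, 7.40, 7.57 and 1.15 CPM in the males on high fat diet, all above the 0.259 to 0.433 CPM of the males on normal diet. Cyp2a22, a P450 of the female-biased Cyp2a genes, had 0.336, 10.3, 11.9 and 0.889 CPM, against 0.434 to 1.39. Both thus showed the low pair and the high pair of Cyp2b9, and in Cyp2a22 the low pair lay within or below the range of the normal diet.

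For Cyp2b10, with a root mean square of 2.00, the nearest were Gm15375 at 1.15, Thrsp at 1.17, Cyp2c54 at 1.25, Cyp4a10 at 1.25 and Gsta2 at 1.29. Its profile thus had no close match relative to its own size. Thrsp, a lipogenic gene, had a mean of 525.5 ± 164.8 CPM in females on normal diet and 127.1 ± 11.3 on high fat diet. In males on high fat diet it had 35.9, 364.9, 372.9 and 96.7 CPM. Cyp4a10, a PPAR alpha target, had 129.9, 654.6, 688.6 and 79.5 CPM in those males, and Gsta2, a glutathione transferase, 2.33, 23.0, 28.2 and 3.97 CPM. In all 3 of these genes, as in Cyp2b10, replicates 2 and 3 were the higher pair, and in Cyp2c54 too (120.9, 334.1, 339.0 and 121.8 CPM). Gm15375, the nearest gene, had 0.149, 0.136, 0.241 and 0 CPM there and did not show this pair. Cyp2c54 and Gsta2 were also on the list of CAR and PXR targets.

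**Figure D5:**
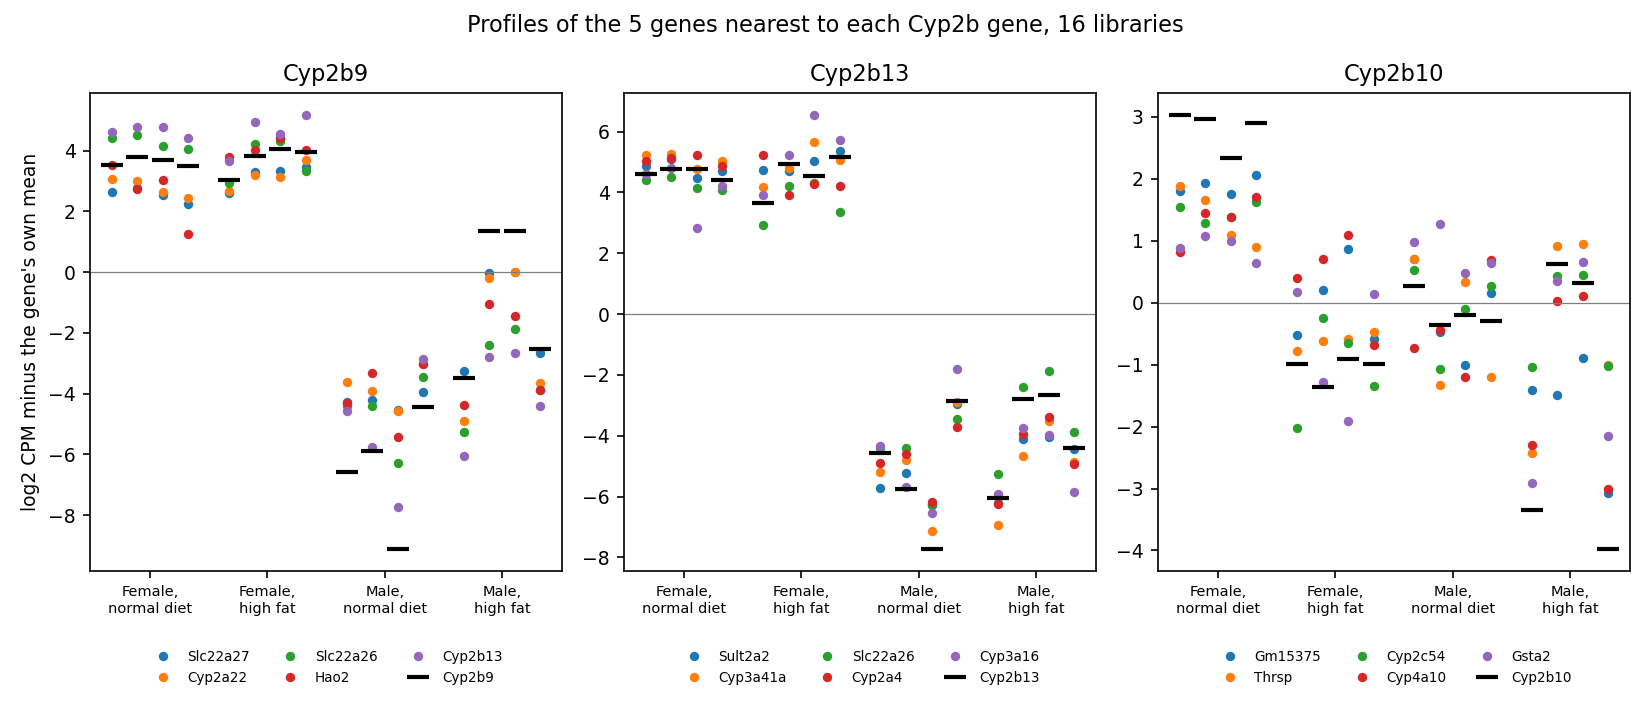
Profiles of the 5 genes nearest to each Cyp2b gene over 16 libraries (y axis, log2 CPM minus the gene's own mean; x axis, libraries by group; black bars, the Cyp2b gene; points, its nearest genes). The points follow Cyp2b13 closely, at 0.757 to 0.986, and Cyp2b10 less so relative to its own size, at 1.15 to 1.29 against 2.00.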

How the data were processed

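Poly(A) RNA of 16 liver samples was sequenced after NEBNext Ultra library preparation, per the labels' protocols. The authors deposited RSEM expected counts and TPM per gene. STAR, RSEM and the build GRCm39 are named in the submitters' processing notes, without versions; the strand setting is not given in the sources used here, so reads of overlapping antisense genes may be included. Gene symbols matched 51487 of 78317 identifiers (98.97% of counts).

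Expected counts, of which 4.89% were not whole, were rounded. Genes were kept by filterByExpr, which left 14781, and scaled by TMM (trimmed mean of M values) in edgeR 4.0.16 (R 4.3.3). The quasi-likelihood test was fitted to all libraries with 1 mean per group, and p-values were two-sided and adjusted by Benjamini-Hochberg over all tested genes, with calls under 0.05. SE values were taken from each fold change and its F statistic (size over root F). The family sum was fitted as 1 gene in place of its members. Log2 CPM used a prior count of 2. At library totals of 22228115 to 41420589, 3 counts are at most 0.133 CPM.

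The genes and lists were chosen with earlier results of these data known. Lists name up to 5 called genes with the smallest p per diet contrast, plus Nr1i3, Nr1i2, Por, Alas1, Stat5b, Bcl6 and Cux2. The lists overlap. Alternatives were DESeq2 1.42.0, limma 3.58.1 on log2(TPM + 1) and log2(TPM + 0.1), no low-count filter, the compared groups alone, a replicate block and leaving out or averaging libraries. The test was tried on simulated counts first.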

Additional observations from a re-analysis of the deposited data

Results flagged for a closer look

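For 2 of the named genes the test of the interaction of diet and sex found that the diet change differed between females and males, among 0.677% of tested genes that passed it (edgeR quasi-likelihood test, Benjamini-Hochberg adjustment). Sult1e1, the estrogen sulfotransferase, had an interaction of -4.08 ± 0.64 on the log2 scale (adjusted p = 0.00582, and at most 0.0159 over 24 alternatives). It went from 1.89 ± 0.639 to 0.647 ± 0.252 CPM in females and from 0.353 ± 0.234 to 2.10 ± 1.04 CPM in males (SD, n = 4). Cyp2c40 had an interaction of 3.22 ± 0.51 (adjusted p = 0.00638, and at most 0.0271). It went from 1078 ± 178.2 to 737.8 ± 166.2 CPM in females and from 20.6 ± 10.4 to 1.51 ± 0.851 CPM in males. Both are on the female-biased list beside which Cyp2b9 was set, and Cyp2c40 in males moved opposite to Cyp2b9. Dixon's test, which looks for a library far from the others of its group, was applied to 16 sets of 4 libraries. It flagged no library for a Cyp2b gene or the family sum. The test cannot flag a split into 2 pairs, because each library then has a near neighbour. Males on high fat diet were split in this way for Cyp2b9, Cyp2b10, Cyp2b13 and the family sum. For this group nothing is concluded from the lack of a flag.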

How the results depend on the processing

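Replicates 2 and 3 of the males on high fat diet decided most of what changed. With both left out, an alternative chosen after seeing the data, the diet difference in males was 2.76 for Cyp2b9, -3.66 for Cyp2b10, -0.98 for Cyp2b13 and -0.24 for the sum. The sex difference on high fat diet was then 6.72, 2.72, 9.96 and 7.29 in the same order, the interaction -2.63, -0.25, 1.01 and 0.27, and Nr1i3 in males stood at -0.27. In males 2 listed receptors and partners and 8 female-biased genes then passed. With the pair averaged, 3 male-biased genes passed in males. On log2(TPM + 1) Cyp2b10 in females was -3.18, Cyp2b9 in males 3.70, the sex difference on normal diet 7.90 for Cyp2b9 and 2.67 for Cyp2b10, and on high fat diet 0.14 for Cyp2b10. The interaction was -3.36 for Cyp2b9 and -1.65 for the sum. On log2(TPM + 0.1) Cyp2b10 was -3.59 in females, 0.63 between the sexes on high fat diet and -2.31 for the interaction. The median of all tested genes moved to 0.15 and 0.22 in females on these TPM scales. Nr1i3 in females was 0.03 on both (0.0253 and 0.0252), and Cux2 0.27 and 0.36. Receptors and partners that passed numbered 3 in females and 2 in males on both TPM scales, and on the first scale 5 female-biased and 3 male-biased genes passed in females. Without the low-count filter 3 receptors and partners passed in females and 3 male-biased genes in males. With the compared groups alone, 4 female-biased genes and 4 growth hormone axis genes passed in females and 2 male-biased genes in males. The cause of these shifts was not tested. Replicate numbers did not pair the samples: over 24 same-number pairs the correlation of deviations was -0.16 to 0.18 (median 0.0442), and 5 of 16 libraries correlated best with their own number. With the replicate block Cyp2b13 in females was -0.11, the sum -0.0135 and Cux2 0.0129, and the CAR and PXR targets that passed were 15 in females and 12 in males. Leaving out 1 library at a time gave -0.18 to 0.26 for Cyp2b13 and -0.10 to 0.22 for the sum in females. Without replicate 2 or 4 on high fat diet or replicate 4 on normal diet both turned below 0, as did the sum without replicate 3 on high fat diet. It gave -0.93 to 0.0786 for Cyp2b10 in males, above 0 without replicate 1 or 4 on high fat diet, 8.62 to 10.51 for the Cyp2b13 sex difference on normal diet, and -2.32 to -0.36 for its interaction, each farthest from the fitted value without replicate 4 of the males on normal diet. It gave -0.14 to 0.14 for Cux2 in females, -0.65 to 0.45 for Bcl6 in males and -0.0051 to 0.30 for Nr1i3 in males. Genes that passed in females numbered 3 to 5 receptors and partners, 0 to 2 female-biased, 3 to 6 male-biased and 1 to 3 growth hormone axis genes, and in males 3 to 6 male-biased genes. CAR and PXR targets numbered 11 to 16 in either sex over all alternatives, 11 to 13 with 1 library left out. Cyp2b10 in females stayed between -4.03 and -3.18 and Cyp2b9 in males between 2.76 and 7.23. Depth limits the male levels of Cyp2b9 and Cyp2b13, which rest on 71 counts or fewer per library on normal diet.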
